A study of Mus musculus with 4 samples.

Results

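The genes described here are 10 interferon-inducible GTPases of the mouse, namely 7 immunity-related GTPases (IRGs: *Irgm1*, *Irgm2*, *Igtp*, *Iigp1*, *Tgtp1*, *Tgtp2* and *Ifi47*) and 3 guanylate-binding proteins (GBPs: *Gbp2*, *Gbp3* and *Gbp7*). They were found by symbol in a table of 53465 genes, in which each of the 10 had 1 row. The set was chosen on measured values, the FPKM of the same 4 libraries, with the difference between the groups known, so their difference is given as a description without a test. RNA came from cultured FGSCs (female germline stem cells) of mouse ovary that had been infected with a lentivirus, which carried either a control hairpin (the shNC group) or a hairpin that targets *Nat10* mRNA (the shNAT10 group). *Nat10* encodes the enzyme that makes N4-acetylcytidine in RNA. Infected cells were selected with puromycin or blasticidin S, so both groups had met a lentivirus and a drug. Each group had 2 libraries, described in the paper as biological replicates, and p-values measure the spread between these libraries only. The study's mice had a C57BL/6J background. The age of the mice that gave the FGSCs, and which of the *Nat10* hairpins listed in the study was used for these libraries, are not given in the sources used here.

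Interferon-inducible GTPases are part of the cell-autonomous defence of mouse cells against vacuolar bacteria and parasites. Interferon gamma and type I interferons turn on their transcription, with IRF1 among the activators, while most of them are low in resting cells. The regulatory IRG proteins (*Irgm1*, *Irgm2* and *Igtp*, which is also called Irgm3) carry a GMS motif in the nucleotide-binding loop and keep the effector IRG proteins inactive on the membranes of the host. The effector IRG proteins (*Iigp1* or Irga6, *Tgtp1* and *Tgtp2* or Irgb6, and *Ifi47* or Irgd) carry a GKS motif and load onto the vacuole of the parasite. GBPs are larger GTPases that gather on damaged vacuoles and bacteria and promote inflammasome activation.

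Total fragments on genes ranged from 11055849 to 14900422 per library, as recovered from the deposited FPKM (fragments per kilobase of exon, scaled to the size of the library). *Nat10*, the knockdown target, was at 7.79 and 5.42 FPKM with the control hairpin and 2.96 and 3.04 in shNAT10 cells. Its log2 difference was -1.09 ± 0.21 (SE), with a Benjamini-Hochberg adjusted p of 0.123 in limma. It passed the threshold used here, a fold change over 1.2 with an unadjusted p of at most 0.05, and no longer passed it without shNAT10-1 (-1.07) or without shNAT10-2 (-1.11). The share of fragments on rRNA-related loci was 46.8% and 36.3% with the control hairpin and 24.2% and 26.2% in shNAT10 cells. These loci include *Gm26917* and *Lars2* beside rRNA genes. With FPKM rescaled to the same total outside these loci, the median log2 difference of the 10 GTPase genes was 1.48 instead of 1.49. The part of the difference in the results was otherwise not tested. Several markers that define germline stem cells were at or near 0, since *Dppa3*, *Pou5f1* and *Dazl* had no fragment in any library and *Ddx4* had 2 fragments, both in shNAT10-1. Markers of other cell types were present, among them the leukocyte genes *Ptprc* (15.3 to 15.5 FPKM) and *Coro1a* (137 to 164), the mast cell protease *Cpa3* (245 to 272), the macrophage receptor *Adgre1* (33.2 to 47.8) and the fibroblast proteoglycan *Dcn* (36.2 to 45.9). Other markers of the same lists were at or near 0, among them *Fcer1a*, *Tpsb2* and Lum with no fragment and *Mcpt4* and *Itgam* with 2 fragments each in all. Of the germline list, *Ifitm3* was present (9.29 to 33.6 FPKM) and *Zbtb16* was low (0.338 to 0.593 FPKM, 21 to 48 fragments per library). *Prdm1* had 6 fragments in every library and *Nanos3* had at most 2. The study itself characterised its FGSCs by *Pou5f1*, *Ddx4*, *Ifitm3* and *Prdm1*. *Dppa3*, *Pou5f1*, *Dazl* and *Ddx4* thus went against the label. *Ifitm3* was present, but it is itself induced by interferon, so its presence does not settle the label. The cells are called FGSCs below as the labels name them.

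The promoters of the GTPase genes are shown because most of them hold the letters of interferon-responsive elements, a property that was not used to choose the genes. RefSeq promoters on GRCm38.p6 (250 bases before to 50 after the annotated start) were found for 9 of the 10 genes. *Iigp1* had no entry. Each line below is the stretch from 110 bases before the start to 10 bases past the annotated RefSeq start, read along the gene. Capitals mark matches to GAAANNGAAA (the core of an interferon-stimulated response element, ISRE, bound by IRF proteins) and to TTCNNNGAA (a gamma-activated site, GAS), searched on both strands. On the other strand the ISRE pattern reads as a pair of TTTC blocks. The patterns were chosen after the promoters had been read. The 4 genes with both patterns next to each other come first:
Tgtp1: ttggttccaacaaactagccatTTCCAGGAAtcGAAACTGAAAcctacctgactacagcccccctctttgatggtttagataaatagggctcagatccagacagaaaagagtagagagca
Tgtp2: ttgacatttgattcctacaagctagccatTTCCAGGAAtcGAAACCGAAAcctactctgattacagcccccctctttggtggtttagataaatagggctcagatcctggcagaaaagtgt
Igtp: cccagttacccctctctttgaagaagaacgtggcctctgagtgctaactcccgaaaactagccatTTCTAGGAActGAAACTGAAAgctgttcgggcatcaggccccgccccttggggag
Irgm2: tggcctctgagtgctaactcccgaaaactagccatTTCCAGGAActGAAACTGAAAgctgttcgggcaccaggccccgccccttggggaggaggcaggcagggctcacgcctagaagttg
*Irgm1* and the GBPs held the ISRE pattern without an adjoining GAS pattern, and *Ifi47* held neither:
Irgm1: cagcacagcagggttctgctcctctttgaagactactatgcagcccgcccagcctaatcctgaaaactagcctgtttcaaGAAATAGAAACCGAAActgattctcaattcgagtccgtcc
Gbp2: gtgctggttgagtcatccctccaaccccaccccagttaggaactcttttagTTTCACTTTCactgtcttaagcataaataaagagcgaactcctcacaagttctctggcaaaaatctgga
Gbp3: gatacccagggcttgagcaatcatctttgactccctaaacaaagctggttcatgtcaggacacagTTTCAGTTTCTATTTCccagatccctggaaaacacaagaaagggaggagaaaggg
Gbp7: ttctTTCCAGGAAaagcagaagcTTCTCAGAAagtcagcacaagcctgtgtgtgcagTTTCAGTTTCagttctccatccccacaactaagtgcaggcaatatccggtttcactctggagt
Ifi47: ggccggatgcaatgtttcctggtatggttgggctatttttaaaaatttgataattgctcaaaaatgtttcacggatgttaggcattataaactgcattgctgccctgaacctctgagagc
The stretches lie at chr11:48992237-48992356, chr11:49064203-49064322 and chr11:48871411-48871530 on the minus strand and at chr11:58199446-58199565, chr11:58214867-58214986, chr3:142620553-142620672, chr3:142559934-142560053, chr3:142530226-142530345 and chr11:49076477-49076596 on the plus strand.

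The ISRE pattern was present in 8 of the 9 GTPase genes with a promoter, against 3.44% of all 32851 promoters of the same length. It was also present in 5 of the 8 other IRG and GBP genes with a promoter, so it is not particular to the genes described here. Counted by gene, 1079 of 27025 genes (3.99%) had it in at least 1 promoter. All matches lay close to the start, between 77 bases before it in *Tgtp1* and 15 bases before it in *Irgm1*. In *Irgm1* and *Gbp3* a pair of overlapping matches shared 1 GAAA. *Gbp3* has a further annotated start 312 bases downstream, whose promoter held neither pattern. The GAS pattern was present in 5 of the 9 genes, against 8.30% of all promoters.

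The GAS pattern reads the same on both strands, so it has no direction of its own. In *Tgtp1*, *Tgtp2*, *Igtp* and *Irgm2* it began 11 bases before the ISRE pattern. In *Gbp7* the nearer of the 2 GAS matches began 34 bases before the ISRE pattern. The joint pattern of 21 bases, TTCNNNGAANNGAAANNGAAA, was found in 5 promoters among the 32851 (0.0152%). Of these, 4 belonged to the GTPase genes named above and the fifth to *Gm12185*, an IRG gene next to *Tgtp1*. The promoters of *Igtp* and *Irgm2* shared an identical run of 61 bases and those of *Tgtp1* and *Tgtp2* 1 of 27 bases, against at most 20 bases in any other pair of the 9 genes, so the joint pattern was not seen in 4 unrelated sequences. A match is a description of letters, and neither binding nor the use of the annotated starts was measured in these libraries. For *Irgm2* the RefSeq start (chr11:58214977) lies inside the GENCODE gene, which begins at chr11:58199618.

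**Figure D1:**
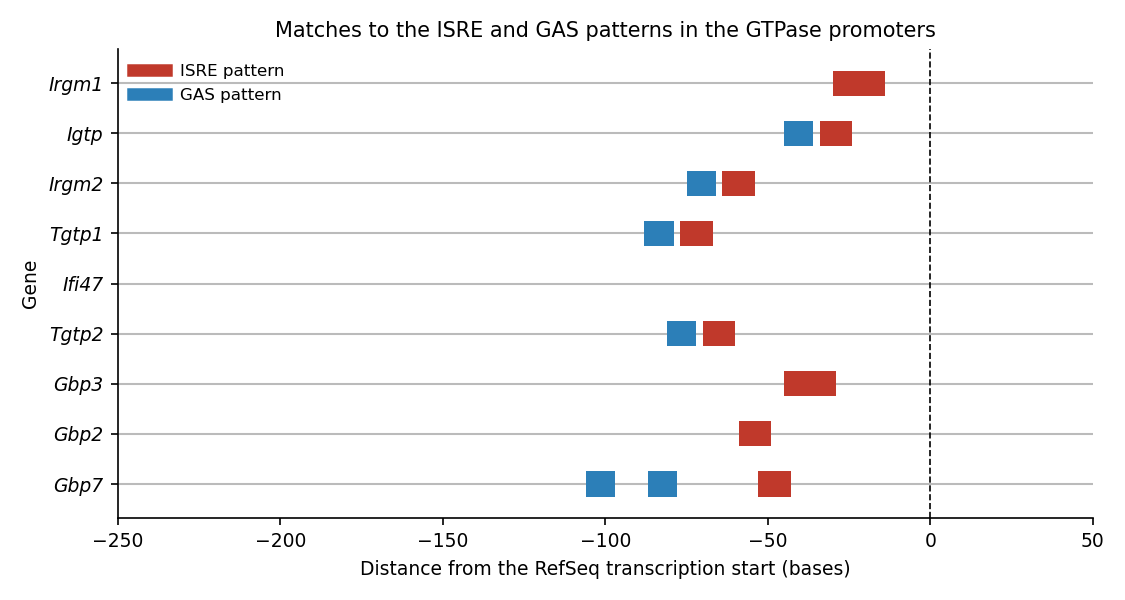
Position of each ISRE match (red) and GAS match (blue) relative to the RefSeq transcription start (dashed line, in bases) in the promoters of the 9 GTPase genes with an entry, each grey line being the 300 bases searched. The GAS and ISRE matches adjoin in *Igtp*, *Irgm2*, *Tgtp1* and *Tgtp2*, and *Ifi47* has neither.

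To see whether the ISRE pattern went along with a difference elsewhere, the 11000 tested genes with a promoter entry, other than the 10 GTPases, were read by the pattern. Of the 416 genes with an ISRE pattern, 43 (10.3%) were called higher in shNAT10 and 32 (7.69%) lower. The background over all 20116 genes tested was 8.41% called higher and 7.83% called lower. Among the 10584 genes without the pattern it was 8.51% and 8.58%. A log2 difference over 1 was seen in 23 of the 416 (5.53%), against 294 of the 10584 genes without the pattern (2.78%). For the GAS pattern these shares were 25 of 932 (2.68%) and 292 of 10068 (2.90%), and 86 of the 932 (9.23%) were called higher and 82 (8.80%) lower. The 18 genes with the ISRE pattern that are also in the interferon pathway lists below had 8 called higher and 1 called lower, and the other 398 had 35 (8.79%) and 31 (7.79%). A log2 difference over 1 was seen in 5 of these 18 genes and in 18 of the other 398 (4.52%).

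The GTPase genes lie in a few clusters, so neighbours share their chromosomal surroundings. On chromosome 11, *Irgm1*, *Tgtp1*, *Tgtp2* and *Ifi47* lie within 235.0 kb (chr11:48861968-49096974) and *Igtp* and *Irgm2* within 23.2 kb (chr11:58199556-58222782). On chromosome 3, *Gbp7*, *Gbp3* and *Gbp2* lie within 107.7 kb (chr3:142530342-142638008). *Iigp1* lies alone on chromosome 18 (chr18:60376027-60392634). The coordinates are those of GENCODE M21 on GRCm38, and the genes have from 3 exons (*Tgtp2* and *Igtp*, overlapping exons merged) to 14 (*Gbp3*).

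Some of the genes share sequence, which limits how far their FPKM can be told apart. Of all 150-base windows of the longest transcript, 74.1% in *Tgtp1* and 71.7% in *Tgtp2* occurred unchanged in another gene, nearly all of them in the other Tgtp copy. For *Gbp7* the share was 8.93%, all in the processed pseudogene *Gm43802*, and for the other 7 genes it was at most 0.854%. *Igtp* and *Irgm2* overlap by 162 exon bases on the same strand. How reads that fit several genes were counted is not given in the sources used here, so the values of *Tgtp1* and *Tgtp2* are read below mainly as a sum.

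All 10 genes had higher FPKM in both shNAT10 libraries than in both shNC libraries. Over all 20116 genes tested, 23.9% showed the same order, and since the genes were chosen on this difference nothing is read from the count. On the log2(FPKM + 0.1) scale the differences ranged from 0.29 for *Irgm2* to 2.55 for *Iigp1*, with a median of 1.49 beside a median of 0.01 over all genes tested. All 10 genes passed the filter on low values, a mean of at least 0.1 FPKM over the 4 libraries, and 7 had a mean of at least 1 FPKM. *Tgtp1*, *Tgtp2* and *Ifi47* stayed under 1 FPKM on average. In bulk RNA, more expressing cells and more RNA per cell cannot be told apart.

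**Figure D2:**
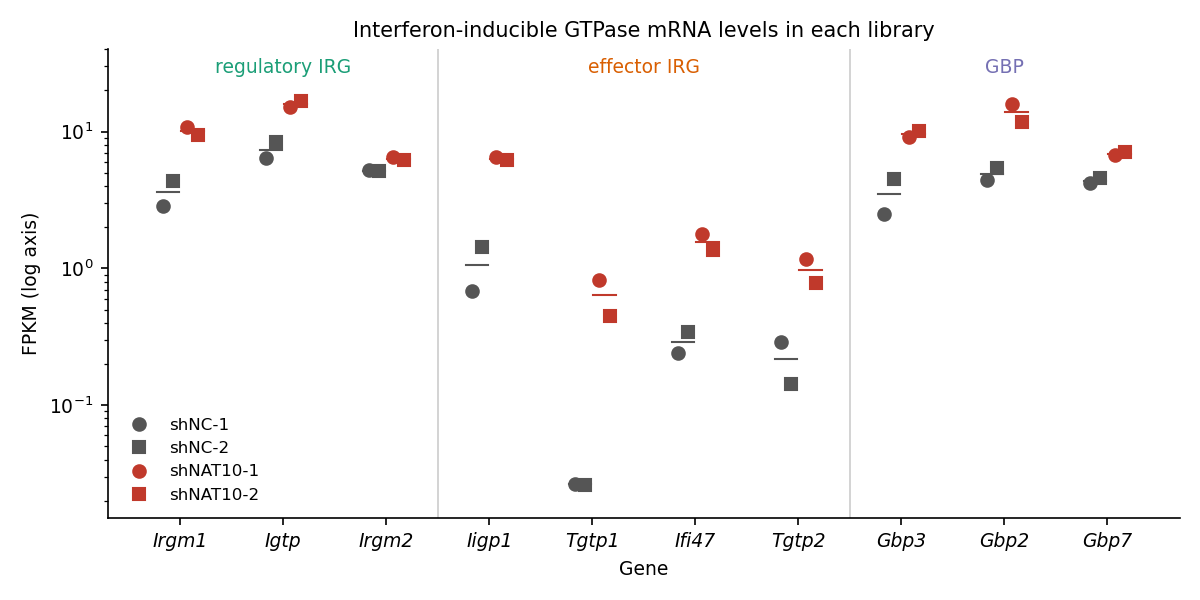
FPKM (log axis) of the 10 GTPase genes in each library, grouped by class, with shNC in grey, shNAT10 in red, circles for replicate 1, squares for replicate 2 and a short line at each group mean (n = 2). For every gene both red points lie above both grey points, and the gap is narrowest for *Irgm2*.

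The regulatory IRG genes were the more abundant IRG genes, although *Iigp1* overlapped with *Irgm2* in shNAT10 cells. *Igtp*, whose protein sits on the endoplasmic reticulum and lipid droplets, was at 6.36 and 8.37 FPKM with the control hairpin and 15.1 and 16.8 in shNAT10 cells. The groups were well apart, and the means were 7.37 ± 1.43 and 16.0 ± 1.24 (SD, n = 2), a log2 difference of 1.12 ± 0.17 (SE). By group mean *Igtp* was the most abundant of the 10 genes in either group, although *Gbp2* (16.0 FPKM) lay above it in shNAT10-1.

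*Irgm1*, whose protein is found on Golgi and lysosomal membranes and is known for restraining interferon responses and supporting autophagy, was at 2.87 and 4.32 FPKM in the shNC libraries. In the shNAT10 libraries it was at 10.8 and 9.42 FPKM, so the lowest shNAT10 value was 2.18 times the highest shNC value. The log2 difference was 1.49 ± 0.23 (SE), and ranged from 1.205 to 1.78 with 1 library left out.

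*Irgm2*, a regulatory IRG of the Golgi, differed least. Its FPKM was 5.21 and 5.14 with the control hairpin and 6.56 and 6.15 in shNAT10 cells. The groups did not overlap, but the nearest libraries were only 1.18 times apart, and the log2 difference was 0.29 ± 0.11 (SE). As many as 26.7% of all genes tested had a larger log2 difference than *Irgm2*. *Igtp* and *Irgm2*, which overlap, thus had unlike differences, although both promoters carry the joint pattern shown above.

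The effector IRG genes started low, with log2 differences from 1.77 to 2.55 on the log2(FPKM + 0.1) scale. Which class differed most depended on the pseudocount. The median log2 difference was 2.29 for the effector IRG genes, 1.47 for the GBP genes and 1.12 for the regulatory IRG genes with 0.1, and 0.84, 1.27 and 1.03 with 1. As ratios of scaled fragments, with no pseudocount, the medians were 2.49, 1.47 and 1.12 on the log2 scale. *Iigp1* encodes Irga6, an effector that is studied as a barrier to the parasite Toxoplasma. It was at 0.682 and 1.43 FPKM with the control hairpin and 6.48 and 6.17 in shNAT10 cells. The shNAT10 libraries were close to each other, while the shNC libraries differed from each other. The log2 difference was 2.55 ± 0.35 (SE), and only 0.656% of all genes tested had a larger one.

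*Ifi47*, the Irgd gene, was at 0.241 and 0.341 FPKM with the control hairpin and 1.77 and 1.37 in shNAT10 cells. These rest on 7 and 10 fragments against 55 and 52, and the ratio of scaled fragments was 5.33, with an exact 95% interval of 3.18 to 9.49 that covers counting error only. On the log2(FPKM + 0.1) scale the difference was 2.10 ± 0.30 (SE). *Ifi47* was the only one of the 9 genes without an ISRE or GAS match in the 300 bases searched at its annotated start. Whether this start is used in these cells was not measured.

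The Tgtp copies encode Irgb6, which is among the first IRG proteins on the vacuole of the parasite. *Tgtp2* was at 0.290 and 0.143 FPKM in the shNC libraries, from 10 and 5 fragments, and at 1.17 and 0.777 FPKM in shNAT10 cells, from 43 and 35 fragments. *Tgtp1* had 1 fragment in each shNC library (0.0266 and 0.0263 FPKM) and 33 and 22 fragments in shNAT10 cells (0.820 and 0.448 FPKM). For *Tgtp1* the ratio of scaled fragments was 23.3, with an exact 95% counting interval of 6.15 to 197, so its size was poorly fixed.

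The log2 difference of *Tgtp1* depended on the pseudocount, being 2.49 with 0.1, 0.66 with 1 and 4.08 with 0.01. Summed over both copies, *Tgtp1* and *Tgtp2* had 11 and 6 fragments with the control hairpin and 76 and 57 in shNAT10 cells. The sum was 0.316 and 0.170 FPKM against 1.99 and 1.23 FPKM, a log2 difference of 2.31.

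Of the GBP genes, *Gbp2*, which carries a CaaX box for prenylation at its end, was at 4.40 and 5.39 FPKM with the control hairpin and 16.0 and 11.7 in shNAT10 cells. The shNAT10 libraries differed from each other by more than counting error (ratio 0.731, exact 95% interval 0.642 to 0.832), yet both lay well above the shNC libraries. The log2 difference was 1.47 ± 0.20 (SE).

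*Gbp3*, a GBP from the same cluster, was at 2.50 and 4.49 FPKM with the control hairpin and 9.08 and 10.1 in shNAT10 cells. Its log2 difference was 1.49 ± 0.29 (SE), and ranged from 1.08 to 1.90 with 1 library left out. *Gbp7*, which is known for bringing parts of the NADPH oxidase to phagosomes, was at 4.19 and 4.59 FPKM against 6.76 and 7.05 FPKM. The *Gbp7* libraries of each group were close together, and the log2 difference was 0.64 ± 0.12 (SE). A larger one was seen in 13.6% of all genes tested.

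**Figure D3:**
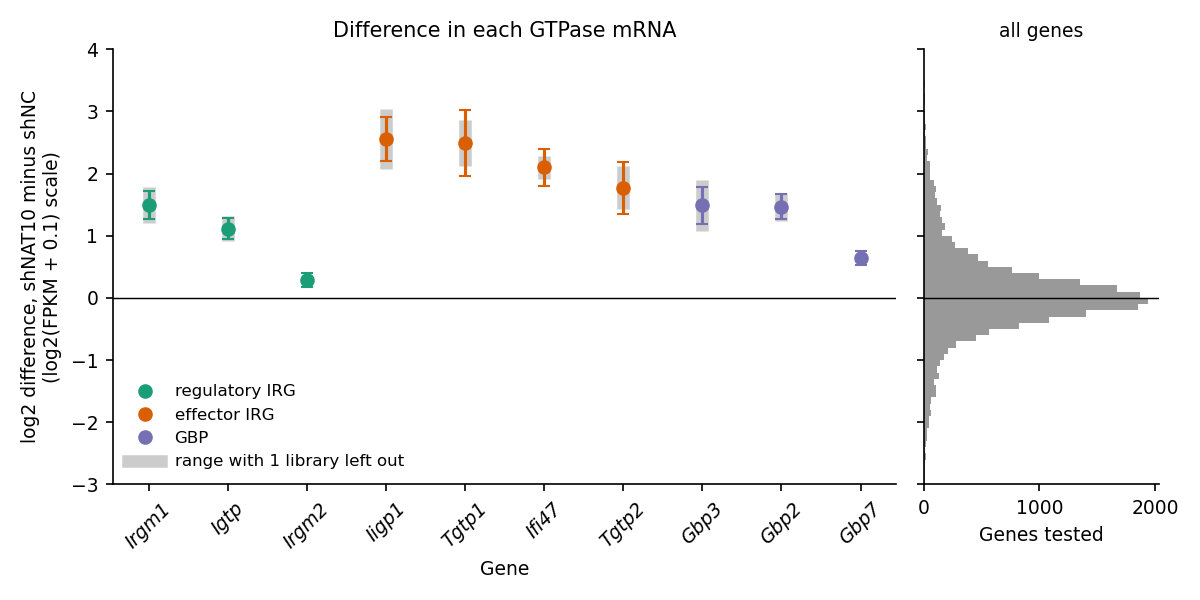
Left, log2 difference between the groups (shNAT10 minus shNC, log2(FPKM + 0.1) scale) for the 10 GTPase genes, with bars of 1 SE from the limma fit and grey bars for the range with 1 library left out. Right, the number of genes at each log2 difference among all 20116 genes tested, which centres on 0.01, while *Iigp1* reaches 2.55 and *Irgm2* 0.29.

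The order of the levels was partly the same in both groups. In shNC cells it ran from *Igtp* (mean 7.37 FPKM) over *Irgm2*, *Gbp2*, *Gbp7*, *Irgm1* and *Gbp3* to *Iigp1* (1.06), *Ifi47* (0.291), *Tgtp2* (0.217) and *Tgtp1* (0.0264). From *Irgm2* to *Gbp3* each gene overlapped its neighbour in the order over the 2 libraries, as did *Ifi47* and *Tgtp2*. In shNAT10 cells the order was *Igtp* (16.0), *Gbp2* (13.8), *Irgm1* (10.1), *Gbp3* (9.61), *Gbp7* (6.90), *Irgm2* (6.36), *Iigp1* (6.32), *Ifi47* (1.57), *Tgtp2* (0.972) and *Tgtp1* (0.634). Here *Igtp* and *Gbp2*, *Irgm1* and *Gbp3*, *Irgm2* and *Iigp1*, and *Tgtp2* and *Tgtp1* overlapped. *Irgm2* moved from the second place to the sixth.

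The balance between regulatory and effector IRG mRNA differed as well. The summed FPKM of *Irgm1*, *Irgm2* and *Igtp* was 14.4 and 17.8 with the control hairpin and 32.5 and 32.4 in shNAT10 cells. For *Iigp1*, *Tgtp1*, *Tgtp2* and *Ifi47* it was 1.24 and 1.94 against 10.2 and 8.76. Effector genes thus made up 7.90% and 9.82% of the summed IRG FPKM with the control hairpin and 24.0% and 21.3% in shNAT10 cells. *Iigp1* alone supplied 55.0% to 73.7% of the effector sum in the 4 libraries. The summed FPKM of the GBP genes was 11.1 and 14.5 against 31.8 and 28.9.

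**Figure D4:**
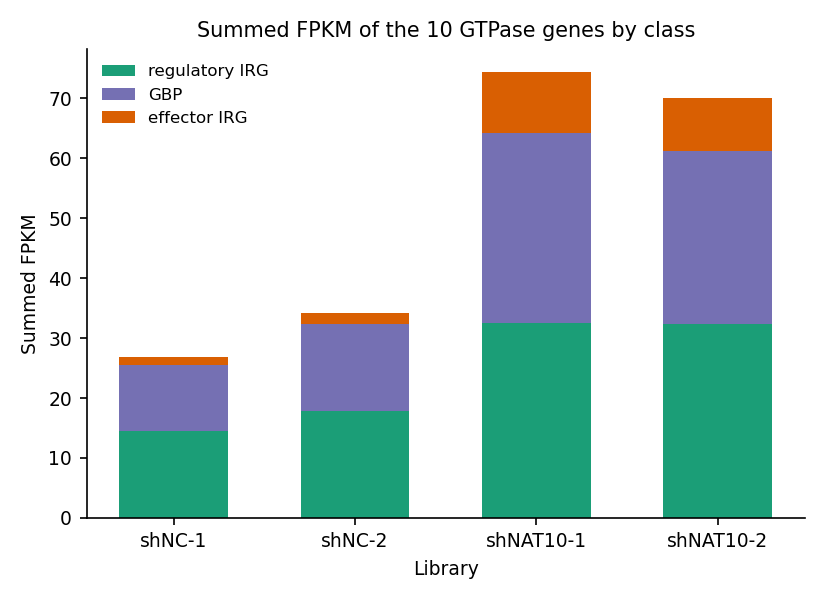
Summed FPKM of the 10 GTPase genes in each library, stacked by class. The total was 26.8 and 34.2 FPKM with the control hairpin and 74.5 and 70.0 in shNAT10 cells, and the effector IRG part (top) was 1.24 to 1.94 and 8.76 to 10.2 FPKM.

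The shNC libraries were not alike in these genes. FPKM was higher in shNC-2 than in shNC-1 for 7 of the 10 genes. In 4 of them (*Irgm1*, *Igtp*, *Iigp1* and *Gbp3*) the exact 95% interval of the ratio of scaled fragments excluded 1. The share of all genes tested that differ in this way was not computed, so the count is not read as particular to the GTPases. *Iigp1* was 2.08 times as high in shNC-2 (1.46 to 3.02) and *Gbp3* 1.79 times (1.39 to 2.33). Among the interferon-stimulated effector genes below, 16 of 26 were higher in shNC-2, against 47.4% of all genes tested. The shNAT10 libraries differed beyond counting error in 3 of the 10 genes (*Irgm1*, *Tgtp1* and *Gbp2*), each higher in shNAT10-1. For this count, too, the share over all genes tested was not computed. In none of the 10 genes did the spread within a group reach the other group.

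The remaining GTPases and the interferon pathway, 122 genes in 9 lists, were read from the same limma fit. Of the 102 tested, 37 (36.3%) were called higher in shNAT10 and 8 (7.84%) lower, beside a background of 8.41% and 7.83%. The median log2 difference was 0.36. The count of higher genes fell to 19 without shNAT10-1 and to 17 without shNAT10-2. No gene of the 102 had a limma adjusted p under 0.05, while 46 had an unadjusted p under 0.05. Over all 20116 genes tested, 88 had a limma adjusted p and 3330 an unadjusted p under 0.05. Limma-voom on the recovered fragments gave an adjusted p under 0.05 to 34 of the 102 (31 higher, 3 lower). Over all genes it did so for 1580 of 20065. The lists were chosen with earlier results of these libraries known, so their counts are descriptive.

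Among the other IRG genes, 3 of the 11 in the table were tested and 2 were called higher. *Gm12250*, which encodes the effector Irgb10, was at 0.401 and 0.463 FPKM with the control hairpin and 2.88 and 2.30 in shNAT10 cells. It rose by a log2 difference of 2.33 ± 0.23 (SE; limma adjusted p = 0.0507), which lies within the range of the effector IRG genes above. *Gm4951* rose from 0.225 and 0.127 FPKM to 0.572 and 0.740 (log2 difference 1.47 ± 0.41). *Irgq*, a more distant relative, was not called (1.04 and 0.886 against 0.733 and 1.02 FPKM).

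Below the filter, *Gm4841* had 0 and 1 fragments against 4 and 9, *F830016B08Rik* had 1 and 2 against 8 and 3, and *Gm12185* had 3 and 1 against 6 and 5. *Gm5431*, *9930111J21Rik1*, *9930111J21Rik2* and *Irgc1* had at most 4 fragments in any library.

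Of the other GBP family genes, 9 of 12 were tested and only *Gbp9* was called, higher in shNAT10 (0.675 and 0.831 against 1.63 and 1.44 FPKM; log2 difference 0.94 ± 0.23). *Gbp6* (1.26 ± 0.51), *Gbp8* (0.80 ± 0.35), *Gbp11* (0.77 ± 0.39) and *Gbp4* (0.55 ± 0.36) had higher values in both shNAT10 libraries without passing the test. *Gbp2b* (0.66 ± 0.78) was at 0 in shNC-1 and at 0.169 to 0.209 FPKM in the others. *Gbp5* and *Gbp10* stayed under the filter, with at most 12 fragments in a library, and *Gm43302* had 1 fragment in all. The atlastins *Atl1*, *Atl2* and *Atl3*, relatives of the GBPs that fuse membranes of the endoplasmic reticulum, had log2 differences of 0.01, -0.09 and 0.08 and were not called.

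*Mx2*, an antiviral dynamin-like GTPase, rose from 1.89 and 3.03 FPKM to 5.42 and 4.33 (log2 difference 0.99 ± 0.27; limma adjusted p = 0.209). *Mx1* was at 0.280 and 0.324 FPKM against 0.524 and 0.573 and was not called. The giant GTPases of the GVIN group gave no call among the 4 tested. In all, 1 of 6 tested genes of the Mx and GVIN list was called.

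Upstream of these genes, the ligands were close to the limit of detection. *Ifng*, the interferon gamma gene, had 1 fragment, in shNC-1. *Ifnb1*, the interferon beta gene, had no fragment in either shNC library and 5 and 1 fragments in shNAT10 cells (0.531 and 0.0870 FPKM). Its log2 difference (1.78 ± 0.87) did not pass the test, and the limit allowed by a count of 0 is 3 fragments per library.

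The receptors did not pass the test in either direction. *Ifngr1* and *Ifngr2*, the receptor chains for interferon gamma, had log2 differences of 0.37 ± 0.19 and 0.07 ± 0.09. *Ifnar1* and *Ifnar2*, the chains for type I interferon, had -0.22 ± 0.10 and -0.26 ± 0.14. Of the kinases that they engage, *Jak1* (0.03 ± 0.10) and *Tyk2* (-0.23 ± 0.16) were not called, and *Jak2* fell by 0.34 ± 0.11 on the log2 scale.

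Of the transcription factors of the pathway named here, *Irf1* and *Irf9* rose. *Irf1*, an activator of GBP and IRG genes, was at 4.07 and 4.77 FPKM with the control hairpin and 7.71 and 7.51 in shNAT10 cells, a log2 difference of 0.78 ± 0.13 (limma adjusted p = 0.106). *Irf9*, which binds ISRE elements after type I interferon, rose from 3.40 and 3.17 to 4.60 and 4.07 FPKM (0.39 ± 0.14). *Stat2* (0.32 ± 0.12), *Irf7* (0.18 ± 0.20) and *Irf2* (-0.22 ± 0.26) were not called. *Irf8* had 1 fragment in all, and *Irf5* fell by 0.37 ± 0.10. *Nlrc5*, the transactivator of class I antigen presentation, rose by 0.64 ± 0.19.

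The inhibitors of the pathway moved in both directions. *Usp18*, a target and inhibitor of type I interferon signalling, rose from 4.67 and 8.88 FPKM to 14.5 and 15.7 (log2 difference 1.22 ± 0.32), and shNC-2 again lay above shNC-1. *Socs3* rose by 0.37 ± 0.10. *Socs1*, the main inhibitor of JAK kinases after interferon gamma, fell by 0.40 ± 0.10 (17.6 and 19.4 against 13.9 and 13.9 FPKM), and *Ptpn2*, a phosphatase of JAK kinases, fell by 0.46 ± 0.11.

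Of the 26 interferon-stimulated effector genes, 18 were called higher and 2 lower, with a median log2 difference of 0.92. *Ifit3*, which binds other IFIT proteins on viral RNA, rose from 1.85 and 2.65 FPKM to 8.13 and 7.03 (log2 difference 1.72 ± 0.21). *Eif2ak2*, the kinase PKR, rose from 5.31 and 4.84 to 10.4 and 9.96 (0.99 ± 0.11; limma adjusted p = 0.061). The rises of *Ifi44* (1.89), *Ifit3b* (1.71), *Xaf1* (1.61), *Oas1a* (1.16), *Rtp4* (1.09), *Zbp1* (0.94), *Ifit1* (0.91), *Herc6* (0.87), *Ifi35* (0.64), *Ifit2* (0.56) and *Bst2* (0.51) were of the same sign. *Isg20*, an exonuclease, went the other way and fell from 10.3 and 11.1 FPKM to 5.65 and 6.28 (fell by 0.83 ± 0.11). *Ifi27l2a* was also called lower (fell by 0.97 ± 0.35), from only 19 and 21 against 15 and 9 fragments. Its log2 difference was -0.49 without shNAT10-2 and -1.46 without shNAT10-1, and its adjusted p was 0.267 in limma-voom. *Isg15* (0.34 ± 0.31) and *Rsad2* (0.36 ± 0.17) were not called.

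Genes of antigen processing, which interferon gamma also induces, had a smaller median than the effector genes above. Of 9, 6 were called higher and none lower, with a median log2 difference of 0.39. *Tap2* (0.76 ± 0.14), *Psmb10* (0.64 ± 0.17), *Psmb9* (0.56 ± 0.18), *Tap1* (0.46 ± 0.14), *Psme2* (0.39 ± 0.12) and *Psmb8* (0.38 ± 0.08), which encode the peptide transporter and parts of the immunoproteasome and its activator, rose. *B2m* (-0.24 ± 0.15) was not called.

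Autophagy proteins that conjugate LC3 and GABARAP guide the GTPases to vacuoles. Of the 15 genes listed for them, none was called higher and 2 were called lower, with a median log2 difference of -0.19. *Sqstm1*, the autophagy receptor p62, fell from 249 and 246 FPKM to 144 and 145 (fell by 0.78 ± 0.08; limma adjusted p = 0.0513), and *Atg3*, the conjugating enzyme of LC3, fell by 0.30 ± 0.08. In the inflammasome list, which holds genes that act after GBPs, 3 of 8 were called higher, namely *Aim2* (0.56 ± 0.13), *Gsdmd* (0.68 ± 0.20) and *Il18* (0.94 ± 0.24), while *Casp4* (0.17 ± 0.09) and *Nlrp3* (0.09 ± 0.14) were not called.

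**Figure D5:**
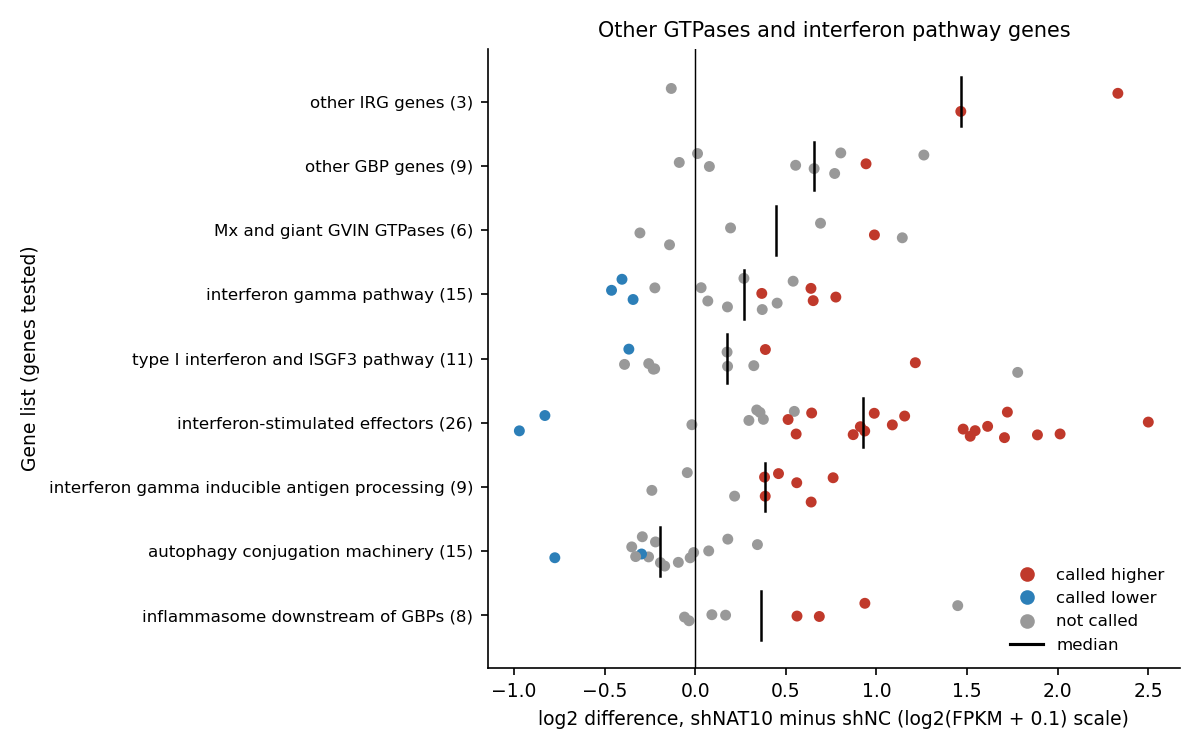
Log2 difference (shNAT10 minus shNC, log2(FPKM + 0.1) scale) of every tested gene in the 9 lists of other GTPases and interferon pathway genes, 1 point per gene, coloured by the limma call, with a line at the median of each list. The interferon-stimulated effectors have 18 points called higher of 26, while the autophagy list has none of 15.

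Because interferon-inducible GTPases are also expressed by immune and stromal cells, marker lists were summed beside them. The 7 pan-leukocyte markers summed to 471.5 and 518.6 FPKM with the control hairpin and to 391.3 and 409.8 in shNAT10 cells, and 3 of 7 were called lower. The fall lay mainly in *Cd53* (174 and 196 against 121 and 126 FPKM) and *Lcp1* (103 and 108 against 78.5 and 84.7), and *Laptm5* was the third gene called lower. *Ptprc* (-0.01), *Coro1a* (-0.04), *Vav1* (-0.03) and *Cd48* (0.06) were not called, and the median log2 difference of the list was -0.04. The macrophage markers summed to 64.7 and 70.3 against 49.4 and 53.7, with 2 of 5 tested called lower and *Itgam* at or near 0. *Adgre1* made up most of this sum. The genes called lower were *Fcgr1* (13.8 and 16.1 against 8.09 and 8.37 FPKM, fell by 0.85 on the log2 scale) and *Adgre1* (fell by 0.37), while *Cd68* (-0.31), *Cd14* (log2 difference 0.70) and *Csf1r* (0.24) were not called.

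Mast cell markers summed to 270.8 and 284.3 against 290.7 and 286.7 FPKM, nearly all from *Cpa3*, with 1 of 4 tested called higher (*Ms4a2*) and 1 lower (*Kit*), while *Fcer1a* and *Tpsb2* had no fragment. Fibroblast markers summed to 54.1 and 47.2 against 65.1 and 55.4, and 3 of 6 tested were called higher (*Pdgfra*, *Col3a1* and *Thy1*). The part of these markers' cells in the GTPase levels was not tested.

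T and NK cell markers summed to 2.67 and 3.89 against 1.21 and 1.05 FPKM, nearly all from *Prf1*, and *Cd3e* had no fragment. B cell, granulosa cell and endothelial markers summed to at most 0.485 FPKM in any library. In the germline list, 2 of 8 markers were tested and neither was called. *Ifitm3*, which is itself induced by interferon, made up nearly all of the sum (9.29 and 22.2 against 27.1 and 33.6 FPKM) and, like several GTPase genes, was higher in shNC-2 than in shNC-1.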

How the data were processed

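Long RNA-seq libraries of shNC and shNAT10 FGSCs (2 per group, grouped by the sample labels) were analysed. The authors aligned the reads and deposited FPKM for 53465 genes; the submitters' processing notes name cutadapt, HISAT2, DESeq2 and mm10. The program that counted reads per gene and its strand setting are not given in the sources used here. The paper's methods describe rRNA depletion, whereas the labels describe mRNA isolation. A second deposited table, with the authors' fold changes and p-values beside the same FPKM, was not used. The number of per-library value columns left unused was 0.

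Fragments were recovered as whole numbers from FPKM and GENCODE M21 exon lengths (96.3% of values under 50 fragments lay within 0.02 of a whole number), and 3 fragments in a 1 kb transcript correspond to 0.196 to 0.255 FPKM. The 20116 genes with a mean of at least 0.1 FPKM were compared on log2(FPKM + 0.1) with limma 3.58.1 in R 4.3.3 (eBayes with trend, two-sided, Benjamini-Hochberg adjustment). This scale understates the differences of low genes. Calls needed an unadjusted p no higher than 0.05 together with a fold change above 1.2. With 2 libraries per group, replicate numbers were not used as a block. Intervals of fragment ratios are exact conditional 95% intervals and cover counting error only. The limma fit and the search for promoter patterns were tested on simulated data. Tables and plots were made with Python 3.11.15 (pandas 2.3.3, numpy 2.4.6, matplotlib 3.10.9 and scipy 1.17.1).

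The 10 genes and the lists were chosen with earlier results of these data known. The text names the 10 genes, *Nat10*, interferon ligands, receptors, kinases, transcription factors and inhibitors, other IRG, GBP and Mx genes, and listed genes that were called with a mean of at least 1 FPKM. Markers and other listed genes that were not called (*Atl1*, *B2m*, *Casp4*, *Isg15*, *Nlrp3* and *Rsad2* among them) were added to the text with their values known. Of the genes that this rule names, 1 is not reported here. Alternatives were pseudocounts of 1 and 0.01, no filter or a mean of at least 1 FPKM, 2 rescalings, the replicate block, each library left out, no trend, limma-voom on fragments, the ratio of fragments, and the sum of *Tgtp1* and *Tgtp2*.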

Additional observations from a re-analysis of the deposited data

How the results depend on the processing

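The 4 libraries and the low counts of *Tgtp1*, *Tgtp2* and *Ifi47* limit the precision. The 10 GTPase genes and their median kept their direction in all 141 values under the alternatives. Both shNAT10 libraries lay above both shNC libraries in each gene, so most alternatives could not reverse a sign. Nothing is read from this count. Their median log2 difference of 1.49 became 1.01 with a pseudocount of 1 and ranged from 1.26 to 1.69 with 1 library left out. With a pseudocount of 1 *Iigp1* was at 1.86, *Tgtp2* at 0.69, *Ifi47* at 0.99 and *Gbp7* at 0.55. *Tgtp1* was at 3.92 in limma-voom and at 4.54 as a ratio of fragments. With 1 library left out, the genes called higher and lower numbered 1108 to 1734 and 899 to 1659 among all genes, beside 1691 and 1576 with 4 libraries. Among the pathway genes they numbered 17 to 30 and 5 to 8, beside 37 and 8. Without the trend, 3 pathway genes were called lower. *Nat10* ranged from -1.35 to -0.83, and its call was lost without either shNAT10 library (-1.07 and -1.11). The cause of these changes was not tested, apart from the fewer samples. The replicate numbers did not pair the libraries, since the deviations of libraries with the same number had a correlation of -0.00168 over 12138 genes. With the replicate block, 1587 genes were called higher and 1527 lower, 34 and 8 of them pathway genes.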
